A study of Chlamydomonas reinhardtii with 28 samples.

Results

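The genes described here encode the nuclear subunits of 2 thylakoid complexes of the green alga *Chlamydomonas reinhardtii*. PETC1, PETM1, PETN1 and PETO1 belong to the cytochrome b6f complex, and ATPC1, ATPD1 and ATPG1 belong to the chloroplast ATP synthase. They were chosen by their gene symbol in the deposited table, which gave 7 genes of 17611, and all 7 passed the filter on low values that 14785 genes passed. The description covers the proportions between the subunit mRNAs in each strain and how the mRNAs varied together.

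The cytochrome b6f complex passes electrons from plastoquinol to plastocyanin between the photosystems, in linear and in cyclic electron flow, and pumps protons into the thylakoid lumen. The ATP synthase lets these protons flow back through its membrane part and makes ATP in its head. Both complexes are mosaics of 2 genomes: the other core subunits, among them cytochrome f, cytochrome b6 and the alpha and beta subunits of the ATP synthase head, are encoded in the plastid, and their mRNAs were not analysed here because the libraries were made from polyadenylated RNA. PETC1 encodes the Rieske iron-sulfur protein, an electron-carrying subunit of cytochrome b6f. PETM1 and PETN1 encode small subunits of that complex with a single membrane helix, and PETO1 encodes a phosphoprotein that is bound loosely to it and is implicated in cyclic electron flow. ATPC1 encodes the gamma subunit, the rotating shaft of the ATP synthase with its thiol switch, ATPD1 the delta subunit, which ties the head to the outer stalk, and ATPG1 subunit II of that stalk.

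RNA abundance was measured in 7 laboratory strains that are used as wild type (WT), with 4 replicate cultures each, 28 libraries in all. CC-124 (mt-), CC-125 (mt+), CC-1009 (mt-), CC-1690 (mt+) and CC-1691 (mt-) are laboratory strains, CC-4532 (mt-) is the strain of the reference genome, and CC-4533 (mt-) is the parent of the CLiP mutant library, where mt is the mating type. No strain carried a transgene or an added treatment: all grew to mid-log phase with acetate in TAP medium with Kropat's trace elements, shaken at 180 rpm in continuous light of 50 to 70 µmol photons m-2 s-1. Each strain is 1 stock, so a difference between strains is a difference between these stocks. The libraries are bulk RNA, in which a change in all cells and in a share of them cannot be told apart. Reads of all strains were aligned to the CC-4532 genome, and the part of this in the differences was not tested. CC-125 and CC-4533 have 8 libraries whose names carry the number 2, while the names of the other 20 carry the number 1, called library sets 2 and 1 below. The cultures of the 2 strains of set 2 were started as 1 batch of 4 and those of the other 5 strains as 2 batches of 2, so set and strain cannot be told apart between sets, and values inside a set are given where they end or turn a call. The sources do not tell which cultures were started together. All tests count the 4 of a strain as independent samples, and their p-values are too small if cultures of a batch resemble each other.

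Levels are FPKM, read counts divided by transcript length and by a scaling factor of the library, calculated by the authors with DESeq2, so that levels of different genes can be compared per length. Median-ratio factors between the deposited libraries were 0.997 to 1.012. The values were thus already on a common median-ratio scale, which does not give the libraries a common sum. The absolute depth is unknown. The relative depth, read from the steps of low FPKM values, was 0.662 to 1.18 in set 1 and 1.33 to 2.01 in set 2. The summed FPKM of a library ran from 480355 in CC-124 replicate 2 to 1319895 in CC-1690 replicate 2. MID1, the gene that sets the minus mating type, matched the labels, with 3.12 to 11.4 FPKM over the 20 libraries of mt- strains and no more than 0.08 FPKM over the 8 of mt+ strains. FUS1, the marker for mt+ strains, was at 0 to 0.1 FPKM in mt+ libraries and at 0 in mt- libraries. The plus type thus rests on the absence of MID1 and not on a marker of its own.

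All 7 mRNAs were abundant. Over the 28 libraries the mean level was 785 FPKM for PETC1 (Cre11.g467689, chromosome 11), 848 FPKM for PETM1 (Cre12.g546150, chromosome 12), 1176 FPKM for PETN1 (Cre16.g650100, chromosome 16) and 387 FPKM for PETO1 (Cre12.g558900, chromosome 12). It was 783 FPKM for ATPC1 (Cre06.g259900, chromosome 6), 772 FPKM for ATPD1 (Cre11.g467569, chromosome 11) and 1030.1 FPKM for ATPG1 (Cre11.g481450, chromosome 11). PETN1 was the highest of the 7 at rank 137 of all genes, and PETO1 the lowest at rank 236. The loosely bound phosphoprotein thus had the lowest message per length of the 4 cytochrome b6f genes, and the other 6 genes lay within ranks 137 to 163.

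Every gene differed between the strains in the F test of limma over the 7 strains on log2(FPKM + 0.1), with adjusted p from 2.34e-07 for PETM1 to 6.72e-05 for ATPD1. This test was passed by 95.2% of all genes tested, so it does not set the 7 apart. Their F values ranked from 6782 (PETM1) to 10666 (ATPD1) of 14785. Strain means spanned a fold of 2.76 for PETM1, 2.38 for PETN1, 2.26 for PETC1 and 1.96 for PETO1, and 2.27 for ATPG1, 1.86 for ATPC1 and 1.81 for ATPD1.

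**Figure D1:**
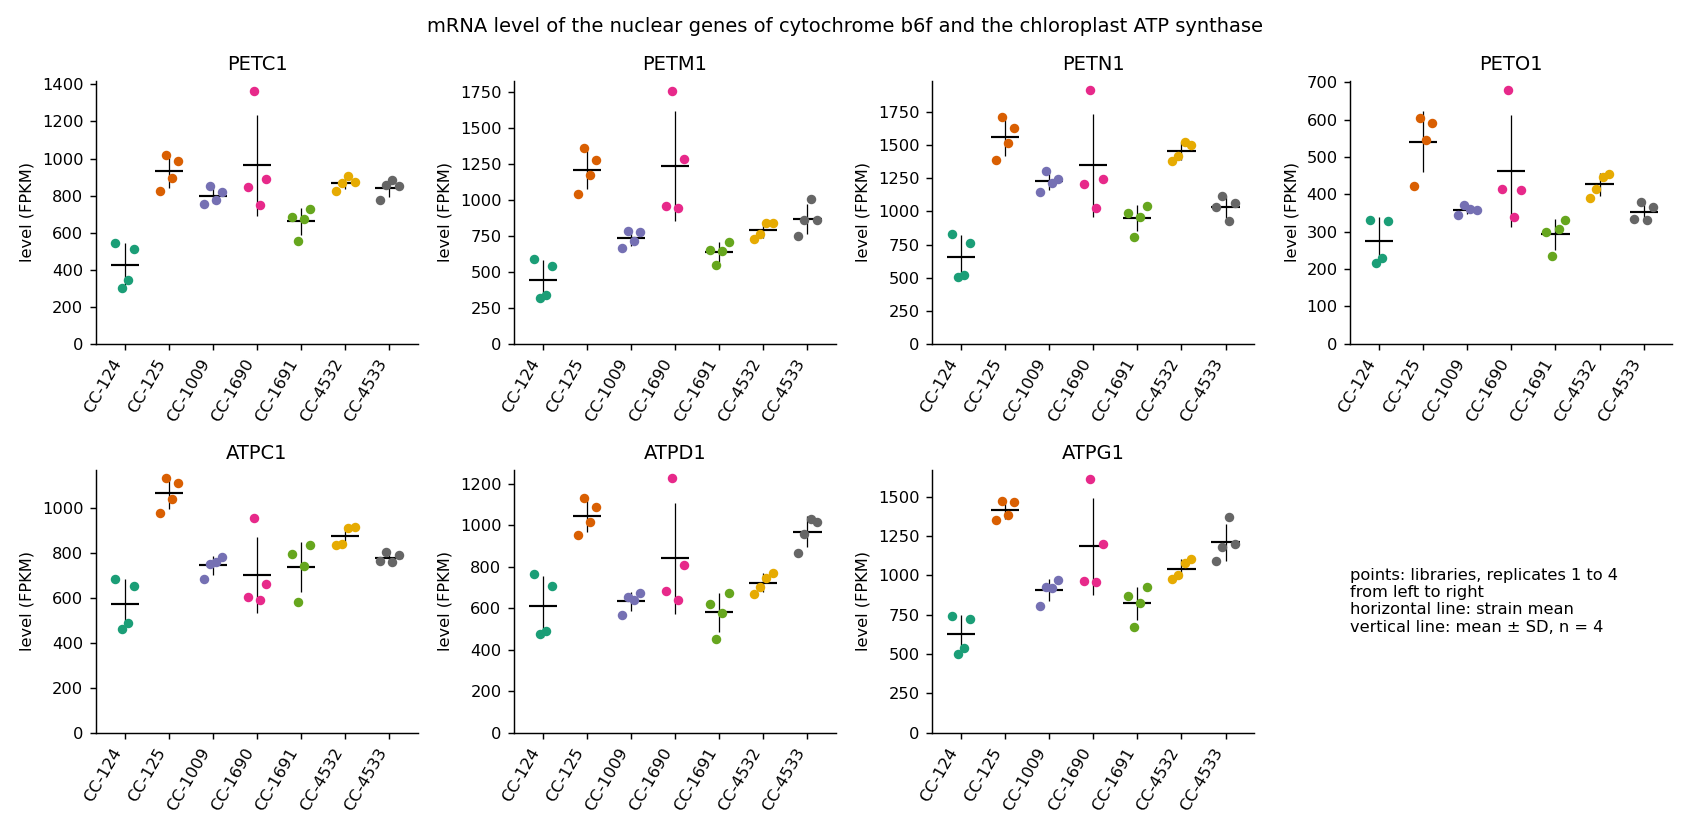
Level in FPKM (vertical axes, from 0) of each gene by strain (horizontal axes). Points are the 28 libraries, replicates 1 to 4 from left to right, horizontal lines are strain means and vertical lines mean ± SD (n = 4). CC-124 lies low for most genes, CC-125 lies high, and CC-1690 replicate 2 is the highest library for all genes but ATPC1.

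PETC1, the Rieske subunit, was lowest in CC-124, where its replicates 1 to 4 were at 546, 304, 343 and 511 FPKM. All 4 lay below the lowest of the other 24 libraries, 554 FPKM in CC-1691 replicate 2, which held for 2.27% of all genes tested. In CC-1690 the replicates were at 847, 1365, 750 and 888 FPKM, with replicate 2 far above the other 3. CC-125 was at 826, 1021, 892 and 986 FPKM. In order, the strain means were 963 ± 275 FPKM (SD, n = 4 here and below) in CC-1690, 931 ± 88.9 in CC-125, 869 ± 32.5 in CC-4532, 843 ± 48 in CC-4533, 800.1 ± 42.5 in CC-1009, 661 ± 74.9 in CC-1691 and 426 ± 121 in CC-124. The only neighbors in this order that differed were the last pair, CC-1691 and CC-124 (limma, adjusted p = 0.00117). Against the mean of the other 6 strains the log2 difference was -1.01 (SE 0.124, adjusted p = 1.79e-07) in CC-124, 0.37 (SE 0.124, adjusted p = 0.011) in CC-1690 and 0.35 (SE 0.124, adjusted p = 0.0174) in CC-125. Without CC-1690 replicate 2 the difference of CC-1690 was 0.19 (adjusted p = 0.167), and without CC-125 replicate 2 or 4 that of CC-125 was 0.31 (adjusted p = 0.0734) or 0.32 (adjusted p = 0.0614). Inside its library set that of CC-125 was 0.14 (adjusted p = 0.497).

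PETM1, a small single-helix subunit, had the widest range of the 7. Its replicates were at 594, 321, 338 and 539 FPKM in CC-124, at 1041, 1362, 1173 and 1277 FPKM in CC-125 and at 960.4, 1757, 944 and 1287 FPKM in CC-1690. CC-124 overlapped the other strains in replicate 1, which exceeded the lowest library of CC-1691 (547 to 707 FPKM). The means ran from 1237 ± 381 FPKM in CC-1690 and 1213 ± 138 in CC-125 through 870.1 ± 104 in CC-4533, 794 ± 54.6 in CC-4532, 738 ± 55.9 in CC-1009 and 639 ± 66.7 in CC-1691 to 448 ± 139 in CC-124. Of the neighbors, CC-125 and CC-4533 differed (adjusted p = 0.03), as did CC-1691 and CC-124 (adjusted p = 0.0112). The log2 difference from the other 6 strains was -1.03 (SE 0.138, adjusted p = 7.41e-07) in CC-124, 0.70 (SE 0.138, adjusted p = 9.97e-05) in CC-125, 0.69 (SE 0.138, adjusted p = 9.36e-05) in CC-1690 and -0.37 (SE 0.138, adjusted p = 0.0287) in CC-1691. The last was -0.22 (adjusted p = 0.219) inside its library set.

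PETN1, the other small single-helix subunit measured, was encoded by the most abundant of the 7 mRNAs. Its replicates were at 826, 508, 523 and 764 FPKM in CC-124, at 1385, 1717, 1519.8 and 1627 FPKM in CC-125 and at 1380.2, 1416, 1526 and 1505 FPKM in CC-4532. The highest of CC-124 overlapped the lowest of CC-1691 (808 to 1044 FPKM), and CC-4532 overlapped CC-125. In order, the means were 1562 ± 143 FPKM in CC-125, 1457 ± 69.8 in CC-4532, 1347 ± 389 in CC-1690, 1229 ± 66.6 in CC-1009, 1036 ± 81.8 in CC-4533, 949 ± 100.5 in CC-1691 and 655 ± 164 in CC-124. Only CC-1691 and CC-124 differed among the neighbors (adjusted p = 0.00403). The log2 difference was -0.95 (SE 0.12, adjusted p = 2.91e-07) in CC-124, 0.55 (SE 0.12, adjusted p = 3.42e-04) in CC-125, 0.43 (SE 0.12, adjusted p = 0.0036) in CC-4532 and -0.29 (SE 0.12, adjusted p = 0.0471) in CC-1691. The last call was lost in 18 of the 28 fits that left out 1 library, with adjusted p between 0.027 and 0.206 over all 28, and inside its library set the difference was -0.23 (adjusted p = 0.139).

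PETO1, the phosphoprotein of the complex, differed less between CC-124 and the rest. Its replicates were at 331, 217, 229 and 329 FPKM in CC-124, at 299, 235, 307 and 333 FPKM in CC-1691 and at 424, 605, 546 and 592 FPKM in CC-125. CC-124 and CC-1691 overlapped, and their means, 276 ± 62.1 and 293 ± 41.7 FPKM, did not differ beyond their spread (adjusted p = 0.628). Above them were CC-4533 at 353 ± 23.8, CC-1009 at 359 ± 10.9, CC-4532 at 427 ± 30.6, CC-1690 at 462 ± 149.8 and CC-125 at 541 ± 82.5 FPKM, and no neighbors in this order differed. The log2 difference was 0.61 (SE 0.128, adjusted p = 2.12e-04) in CC-125, -0.54 (SE 0.128, adjusted p = 9.15e-04) in CC-124, -0.42 (SE 0.128, adjusted p = 0.00833) in CC-1691 and 0.30 (SE 0.128, adjusted p = 0.0412) in CC-1690. The difference in CC-1690 was 0.09 (adjusted p = 0.488) without its replicate 2.

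ATPC1, the gamma subunit, was highest in CC-125, with replicates at 976, 1132, 1043 and 1113 FPKM. All 4 lay above the highest of the other 24 libraries, 955 FPKM in CC-1690 replicate 2, which held for 6.61% of all genes tested. In CC-124 the replicates were at 686, 461, 489 and 651 FPKM, within reach of CC-1690 at 602, 955, 592 and 660.4 FPKM and of CC-1691 replicate 2 at 582 FPKM. The means ran from 1066 ± 71.2 FPKM in CC-125 through 877 ± 43.7 in CC-4532, 780 ± 20.4 in CC-4533, 745 ± 42.1 in CC-1009, 738 ± 111 in CC-1691 and 702 ± 171 in CC-1690 to 572 ± 113 in CC-124, with no difference between neighbors. The log2 difference was 0.56 (SE 0.106, adjusted p = 7.43e-05) in CC-125 and -0.51 (SE 0.106, adjusted p = 2.22e-04) in CC-124. CC-1690, which had the highest means of PETC1 and PETM1, was next to last for ATPC1, with a log2 difference of -0.18 (SE 0.106, adjusted p = 0.139).

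ATPD1, the delta subunit, was the only gene of the 7 whose lowest strain mean was not in CC-124. Its replicates were at 618, 449.6, 576 and 676 FPKM in CC-1691 and at 764, 474, 492 and 707 FPKM in CC-124. They were at 953, 1132, 1015 and 1087 FPKM in CC-125 and at 867, 958, 1032 and 1017 FPKM in CC-4533, both above all libraries of these 2 low strains. In order, the means were 1047 ± 79.1 FPKM in CC-125, 969 ± 74.8 in CC-4533, 840.5 ± 269 in CC-1690, 723 ± 45.1 in CC-4532, 633 ± 45.4 in CC-1009, 609 ± 148 in CC-124 and 579.9 ± 96 in CC-1691, again with no difference between neighbors. The log2 difference was 0.57 (SE 0.128, adjusted p = 4.69e-04) in CC-125, 0.44 (SE 0.128, adjusted p = 0.00488) in CC-4533, -0.44 (SE 0.128, adjusted p = 0.00611) in CC-1691 and -0.38 (SE 0.128, adjusted p = 0.0154) in CC-124. The call in CC-124 was lost without its replicate 2 (-0.27, adjusted p = 0.116) or 3 (-0.29, adjusted p = 0.0989). None of these calls held inside the library sets, where the difference was 0.11 in CC-125 and -0.11 in CC-4533 (adjusted p = 0.611), -0.26 in CC-1691 (adjusted p = 0.115) and -0.19 in CC-124 (adjusted p = 0.237).

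ATPG1, subunit II, was at 743, 498, 538 and 723 FPKM in CC-124 and at 1353, 1475, 1386 and 1464 FPKM in CC-125. CC-4533 stood between, at 1093, 1182, 1369.8 and 1197 FPKM. CC-125 lay above all libraries of 4 strains and overlapped CC-1690 replicate 2 at 1617 FPKM and CC-4533 replicate 3. In order, the means were 1419 ± 59.4 FPKM in CC-125, 1211 ± 116 in CC-4533, 1186 ± 309 in CC-1690, 1042 ± 60.8 in CC-4532, 906 ± 71 in CC-1009, 822 ± 107 in CC-1691 and 626 ± 125 in CC-124, and only the last pair of neighbors differed (adjusted p = 0.0221). The log2 difference was -0.80 (SE 0.112, adjusted p = 1.34e-06) in CC-124, 0.60 (SE 0.112, adjusted p = 4.80e-05) in CC-125, 0.33 (SE 0.112, adjusted p = 0.0128) in CC-4533, -0.33 (SE 0.112, adjusted p = 0.0184) in CC-1691 and 0.26 (SE 0.112, adjusted p = 0.0392) in CC-1690. The call in CC-1690 was lost without its replicate 2 (0.10, adjusted p = 0.399) or 4 (0.24, adjusted p = 0.1), and that in CC-4533 without its replicate 3 (0.27, adjusted p = 0.0618). Inside the library sets the difference was 0.23 in CC-125 and -0.23 in CC-4533 (adjusted p = 0.194) and -0.15 in CC-1691 (adjusted p = 0.303).

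By strain, all 7 genes were lower in CC-124 than in the other 6 strains, where 27.9% of all genes tested were lower and 25.6% higher. All 7 were higher in CC-125, against 30.4% of all genes higher and 28.5% lower. In CC-1690, 4 of the 7 were higher (PETC1, PETM1, PETO1 and ATPG1), against 34.2% of all genes higher and 35.3% lower. In CC-1691, 5 were lower (PETM1, PETN1, PETO1, ATPD1 and ATPG1), against 23.6% lower and 23.4% higher. In CC-4532 only PETN1 was higher, against 26.6% higher and 27.4% lower, and in CC-4533 only ATPD1 and ATPG1, against 29.2% higher and 30.3% lower. In CC-1009 none was called by limma (1 of the 7 at an unadjusted p below 0.05), where 25.4% of all genes were higher and 24.5% lower. The median log2 difference of the 7 genes was -0.80 in CC-124 and 0.57 in CC-125, while that of all genes tested lay between -0.01 and 0.01 in each of the 7 strains.

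Leaving out 1 library changed the counts of 2 strains most. Without CC-1690 replicate 2, which held the highest summed FPKM of all libraries, 1 of the 7 genes was higher in CC-1690 and 1 was lower. Without CC-1691 replicate 2, none was lower in CC-1691, and without its replicate 1 or 3 the count was 3. Without CC-1690 replicate 2, CC-4532 had 4 genes higher. CC-124 kept 6 or 7 genes lower and CC-125 kept 6 or 7 genes higher over all 28 such fits.

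Inside library set 1, against the mean of the other 4 strains of the set, 6 of the 7 genes were lower in CC-124, with log2 differences of -0.97 (PETC1), -0.92 (PETM1), -0.93 (PETN1), -0.47 (PETO1), -0.43 (ATPC1) and -0.66 (ATPG1). ATPD1 was at -0.19 (limma, adjusted p = 0.237). In CC-1690, 6 genes were higher inside the set, and PETM1 was at 0.92 (adjusted p = 3.42e-06). In CC-4532, 5 were higher, and in CC-1691 only PETO1 was lower (-0.34, adjusted p = 0.0369). Inside set 2, CC-125 exceeded CC-4533 in PETM1 by 0.48 (adjusted p = 0.03), in PETN1 by 0.59 (adjusted p = 0.0028), in PETO1 by 0.60 (adjusted p = 0.00388) and in ATPC1 by 0.45 (adjusted p = 0.00928). PETC1 (0.14), ATPD1 (0.11) and ATPG1 (0.23) did not pass in that comparison. The share of all genes tested that was called inside a set is not given, so these counts have no share to be read against. Inside the sets the median of all genes lay between -0.035 (CC-4533) and 0.035 (CC-125). That of the 7 genes was -0.66 in CC-124, 0.43 in CC-1690, 0.35 in CC-4532, -0.22 in CC-1691 and 0.45 in CC-125.

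Between single strains, the 7 genes gave 147 comparisons over the 21 pairs, of which 76 were called, against 54% of all such comparisons over all genes tested. PETM1 was called in 15 of the 21 pairs, ATPG1 in 13, PETN1 in 11, ATPC1 and ATPD1 in 10 each, PETO1 in 9 and PETC1 in 8. With a difference over 2-fold added as a condition, 11 remained, against 18.8% of the comparisons over all genes, and all 11 had CC-124 as the lower strain. They were PETC1 and PETM1 against CC-125, CC-1690 and CC-4533, PETC1 against CC-4532, PETN1 against CC-125, CC-1690 and CC-4532, and ATPG1 against CC-125. The most different pair was CC-124 and CC-125, in which all 7 genes were called, 4 of them over 2-fold, with PETM1 at -1.48 on the log2 scale (CC-124 minus CC-125). CC-1009 had 0 genes called by limma against CC-1691 (1 at an unadjusted p below 0.05) and 0 against CC-4532 (0 at that p). The shares of all genes given here are pooled over the 21 pairs. Those of each single pair are not given, so whether a pair's count departs from its own share was not tested.

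These directions depend in part on how the libraries are scaled. The deposited FPKM values do not add up to a common sum. Scaling every library to the same summed FPKM moved the median of all genes in each strain, to 0.24 in CC-124, -0.27 in CC-125, 0.21 in CC-1009, -0.53 in CC-1690, 0.47 in CC-1691, 0.25 in CC-4532 and -0.39 in CC-4533. Under it the median of the 7 genes was -0.54 in CC-124 and 0.28 in CC-125, the same sides as before, with 6 genes lower in the former and 6 higher in the latter. In CC-1690 it was -0.29, with 6 genes lower and 1 higher, in CC-1691 it was 0.16, with 4 higher, in CC-4532 it was 0.48, with 7 higher, and in CC-4533 it was -0.25, with 5 lower. Relative to the median of all genes on that scale, CC-1690 was above (0.24) and CC-1691 below (-0.31). Quantile normalization gave medians of -0.54 in CC-124, 0.20 in CC-125, -0.15 in CC-1690, 0.12 in CC-1691 and 0.34 in CC-4532, and relative to all genes CC-1690 was then below (-0.16) and CC-1691 above (0.14). The calls over all genes that were higher made up 47.8% to 51.7% of each strain's calls on the deposited scale and 14.7% (CC-4533) to 91.8% (CC-1691) with the same summed FPKM.

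**Figure D2:**
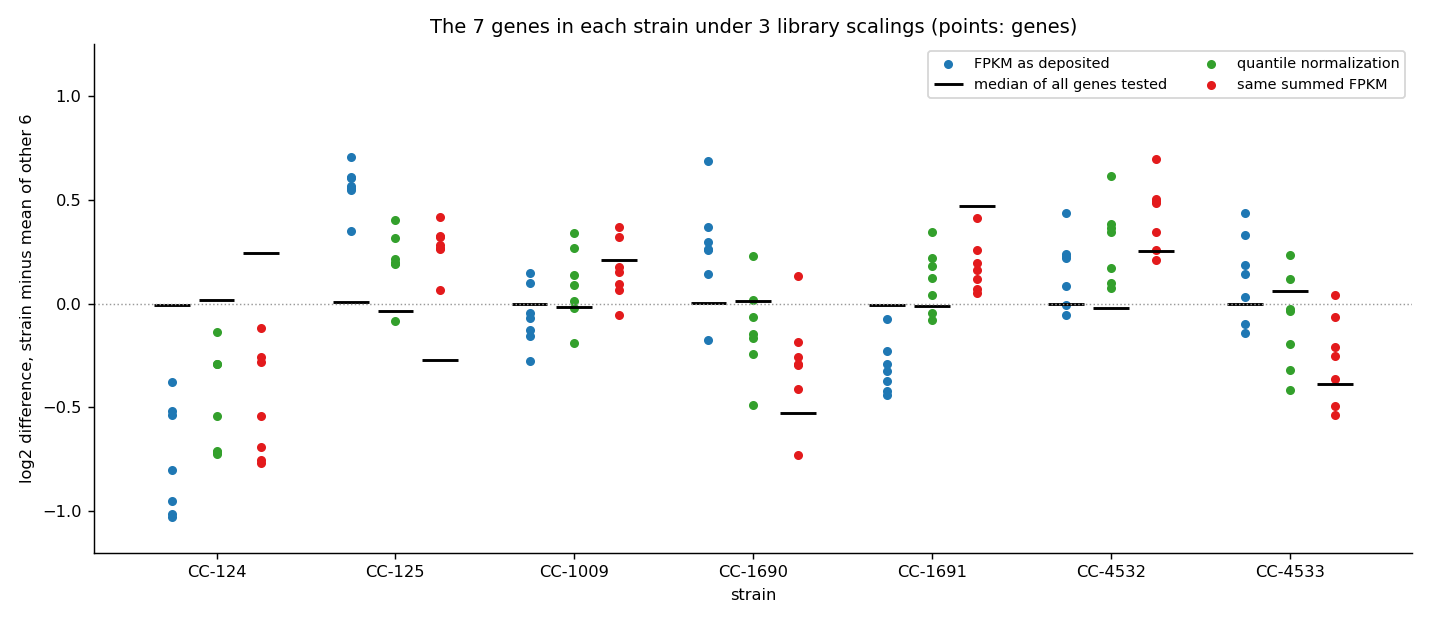
Log2 difference of each of the 7 genes between a strain and the mean of the other 6 (vertical axis) by strain (horizontal axis), for the FPKM as deposited, after quantile normalization and with the same summed FPKM in every library. Black lines are the median of all genes tested under the same scaling. CC-124 is below 0 and CC-125 mostly above 0 in all 3, while several genes of CC-1690 and CC-1691 change sides.

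As a share of the summed FPKM of a library, the 7 genes together took 0.579% to 0.614% in CC-124, the lowest of all strains, with no overlap. CC-1690 was at 0.662% to 0.721% and CC-4533 at 0.672% to 0.717%. CC-1691 was at 0.787% to 0.985%, CC-1009 at 0.853% to 0.916% and CC-125 at 0.949% to 0.958%. CC-4532 had the highest share, 1.03% to 1.08%, again with no overlap. On this scale CC-125 thus stood below CC-4532, while in FPKM it had the highest mean of 5 of the 7 genes.

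The proportions inside a complex were more alike between replicates than the levels were. The pooled SD inside strains was 0.19 (ATPC1) to 0.26 (PETM1) on the log2 scale for the 7 levels, and 0.063 (ATP synthase to cytochrome b6f) to 0.083 (PETO1 to PETC1) for the 6 ratios between genes or complexes. Differences between strains made up 69.3% (ATPD1) to 81.7% (PETN1) of the variance of the levels and 85.8% (PETN1 to PETC1) to 94.2% (ATPD1 to ATPC1) of that of the ratios. A ratio of 2 genes of the same library is not touched by a factor that scales the library. Whether ratios of other genes have like spreads and shares of variance was not tested.

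Of the summed FPKM of the 4 cytochrome b6f genes, PETN1 took 36.9% ± 2.83 (SD over 28 libraries), PETM1 26.15% ± 3.12, PETC1 24.7% ± 1.7 and PETO1 12.3% ± 1.48. PETN1 ranged from 33.4% ± 2.78 in CC-4533 and 33.7% ± 1.14 in CC-1690 to 41.1% ± 0.246 in CC-4532. PETM1 was lowest in CC-4532 at 22.4% ± 0.411 and highest in CC-1690 at 30.8% ± 2.29, so the messages of the 2 small subunits lay far apart in CC-4532 and close together in CC-1690. PETO1 took 15.5% ± 0.763 in CC-124 and 11.4% to 12.7% in the other 6 strains. Of the 3 ATP synthase genes, ATPG1 took 39.55% ± 2.64, ATPC1 30.65% ± 3.24 and ATPD1 29.8% ± 2.56. ATPC1 took 25.9% ± 1.15 in CC-1690 and 34.5% ± 0.305 in CC-1691, while ATPG1 ran from 34.7% ± 0.63 in CC-124 to 43.55% ± 1.1 in CC-1690.

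All 6 ratios differed between the strains (permutation test of F with 100000 resamples, p = 1e-05 and adjusted p = 1e-05 for each, the smallest that this number allows). The highest strain exceeded the lowest by 1.58-fold for ATPD1 to ATPC1, 1.57-fold for PETO1 to PETC1, 1.54-fold for ATPG1 to ATPC1, 1.47-fold for ATP synthase to cytochrome b6f, 1.43-fold for PETM1 to PETC1 and 1.37-fold for PETN1 to PETC1. Each strain was then set against the other 24 libraries by an exact two-sided permutation test, 42 tests in all, of which 11 passed with Benjamini-Hochberg adjustment. Ratios of other genes were not computed, so the 6 and the 11 have no share of other ratios to be read against. Whether they set these complexes apart was not tested. For levels, the F test over strains was passed by 95.2% of all genes tested. The 11 are given below with their ratios by replicate.

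**Figure D3:**
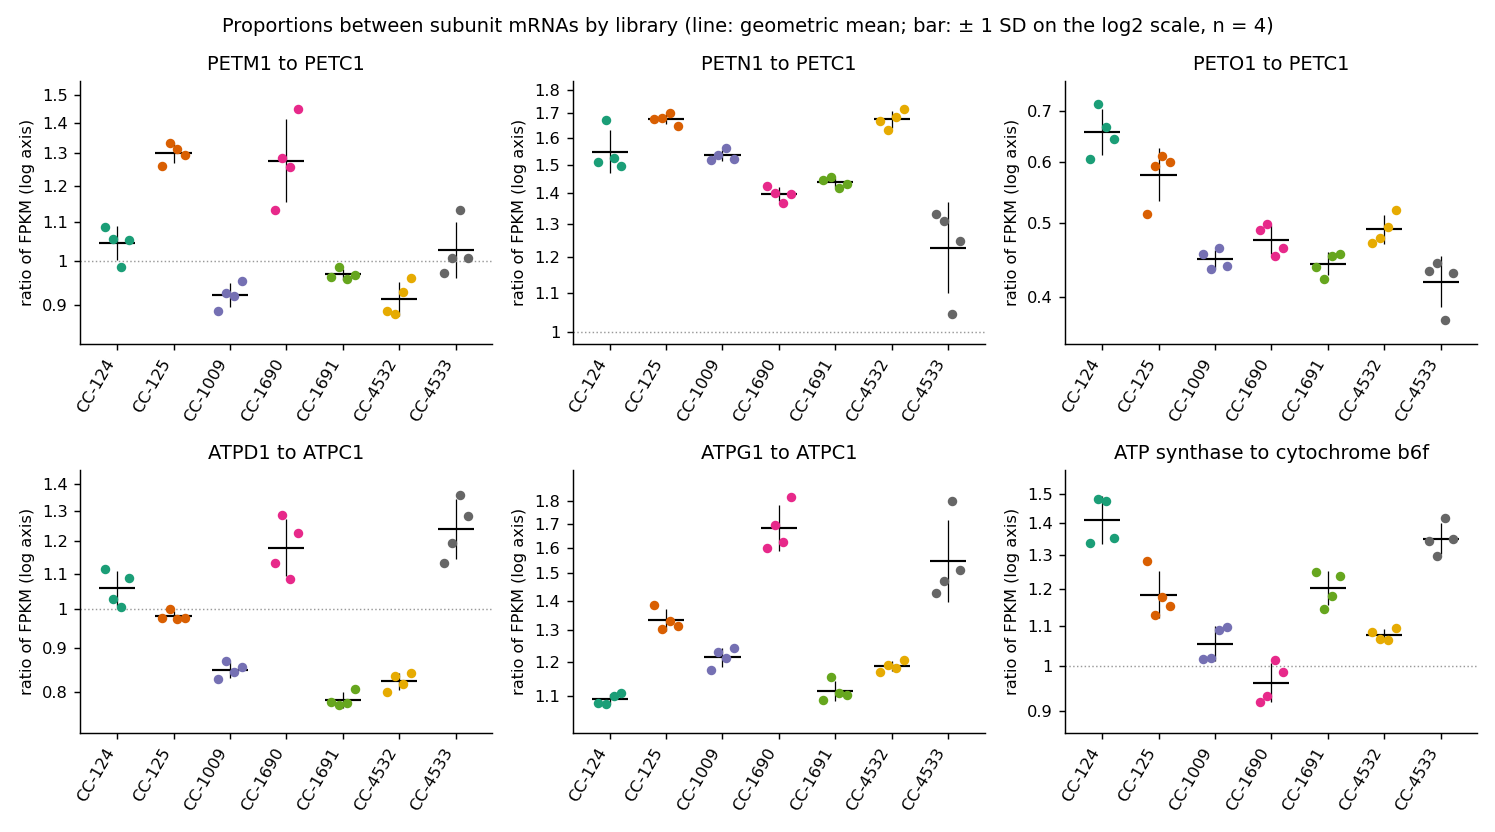
Ratios of FPKM (vertical axes, log scale) of PETM1, PETN1 and PETO1 to PETC1, of ATPD1 and ATPG1 to ATPC1, and of the geometric mean of the 3 ATP synthase genes to that of the 4 cytochrome b6f genes, by strain (horizontal axes). Points are libraries, lines geometric means and bars ± 1 SD on the log2 scale (n = 4). PETO1 is relatively high in CC-124, ATPD1 and ATPG1 are high relative to ATPC1 in CC-1690 and CC-4533, and ATP synthase is low relative to cytochrome b6f in CC-1690.

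The ratio of PETM1 to the Rieske gene was 1.26, 1.33, 1.31 and 1.29 in replicates 1 to 4 of CC-125 (log2 difference 0.35, exact permutation p = 0.00117, adjusted p = 0.00703) and 1.13, 1.29, 1.26 and 1.45 in those of CC-1690 (log2 difference 0.32, exact permutation p = 0.00337, adjusted p = 0.0157). The other 5 strains had geometric means between 0.913 (CC-4532) and 1.04 (CC-124). PETM1 thus exceeded PETC1 in every library of CC-125 and CC-1690 and was below it in every library of CC-1009, CC-1691 and CC-4532. Without CC-1690 replicate 4 the difference of CC-1690 was 0.26 (exact permutation test, adjusted p = 0.0626), and with quantile normalization it was 0.21 (adjusted p = 0.161).

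The ratio of PETN1 to PETC1 was 1.33, 1.31, 1.04 and 1.25 in CC-4533, below all other 24 libraries (log2 difference -0.33, exact permutation p = 4.88e-05, adjusted p = 0.00205, the smallest p of the 42). CC-4533 replicate 3 was lower than the other 3, and without it the log2 difference was -0.25. CC-125 at 1.68 and CC-4532 at 1.68 had the highest geometric means and overlapped (exact permutation test of 4 against 4, p = 0.971).

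The ratio of PETO1 to PETC1 was 0.607, 0.716, 0.667 and 0.643 in CC-124 (log2 difference 0.47, exact permutation p = 9.77e-05, adjusted p = 0.00205). Replicates 2 to 4 exceeded all libraries of the other strains, and replicate 1 was within the range of CC-125 (0.513, 0.593, 0.611 and 0.6). In the other 5 strains the geometric means were 0.419 (CC-4533) to 0.49 (CC-4532).

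The ratio of ATPD1 to ATPC1 had the largest share of its variance between strains, 94.2%. It was 1.13, 1.19, 1.36 and 1.28 in CC-4533 (log2 difference 0.41, exact permutation p = 9.28e-04, adjusted p = 0.0065) and 1.13, 1.29, 1.08 and 1.23 in CC-1690 (log2 difference 0.32, exact permutation p = 0.0127, adjusted p = 0.0494). It was 0.779, 0.772, 0.777 and 0.808 in CC-1691 (log2 difference -0.37, exact permutation p = 0.00313, adjusted p = 0.0157). The delta message thus exceeded the gamma message in every library of CC-124, CC-1690 and CC-4533 and was below it in every library of CC-1009, CC-1691 and CC-4532, while in CC-125 they were nearly equal, at 0.976, 1, 0.973 and 0.977. The call in CC-1690 was lost in 19 of the 28 tests that left out 1 library, with a log2 difference of 0.28 to 0.36 and adjusted p of 0.0154 to 0.12.

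The ratio of ATPG1 to ATPC1 was 1.6, 1.69, 1.62 and 1.82 in CC-1690 (log2 difference 0.44, exact permutation p = 3.42e-04, adjusted p = 0.00359) and 1.43, 1.47, 1.8 and 1.51 in CC-4533 (log2 difference 0.30, exact permutation p = 0.0129, adjusted p = 0.0494). CC-4533 replicate 3 again stood apart, and the call in CC-4533 was lost in 22 of the 28 tests that left out 1 library, with a log2 difference of 0.23 without that replicate. The lowest geometric means, 1.09 in CC-124 and 1.12 in CC-1691, did not differ beyond their spread (exact permutation test of 4 against 4, p = 0.171). CC-1690 and CC-4533 were therefore the strains with the least ATPC1 message relative to both other ATP synthase genes.

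Between the complexes, the ratio of the geometric mean of the ATP synthase genes to that of the cytochrome b6f genes was 0.92, 0.931, 1.01 and 0.987 in CC-1690, below all other 24 libraries (log2 difference -0.33, exact permutation p = 2.44e-04, adjusted p = 0.00342). It was 1.34, 1.48, 1.48 and 1.35 in CC-124 (log2 difference 0.32, exact permutation p = 6.35e-04, adjusted p = 0.00533). CC-4533 at 1.35 overlapped CC-124 and missed the threshold (log2 difference 0.24, exact permutation test, adjusted p = 0.0542). On average the cytochrome b6f genes in CC-124 were thus further below the other strains than the ATP synthase genes were. The exception was PETO1, whose log2 difference (-0.54) was near that of ATPC1 (-0.51) and smaller than that of ATPG1 (-0.80).

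Inside the library sets all 11 ratio differences kept their direction and passed the exact permutation test, in set 1 with 4 libraries against 16 and in set 2 with 4 against 4. In set 1 the log2 difference was 0.50 for PETO1 to PETC1 in CC-124, 0.41 for PETM1 to PETC1 in CC-1690, 0.55 for ATPG1 to ATPC1 in CC-1690 and 0.40 for ATP synthase to cytochrome b6f in CC-124 (exact permutation test, adjusted p = 0.00155 each). In set 2, CC-125 and CC-4533 did not overlap in any of the 6 ratios (exact permutation p = 0.0286 each, the smallest that 4 against 4 allows, adjusted p = 0.0286). CC-125 was higher by 0.34 for PETM1, 0.45 for PETN1 and 0.46 for PETO1, each relative to PETC1, and lower by 0.34 for ATPD1 and 0.21 for ATPG1 relative to ATPC1. The set alternatives for the ratios were chosen after seeing the data.

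Over the 28 libraries the 7 mRNAs varied together. Pearson's r of log2(FPKM + 0.1) ranged from 0.655 (PETN1 and ATPD1) to 0.951 (PETM1 and ATPG1) over the 21 pairs of genes. The median was 0.905 over the 6 pairs within cytochrome b6f, 0.836 over the 3 pairs within ATP synthase and 0.832 over the 12 pairs between the complexes. By this measure the closest pair was one between the complexes, while by Spearman's rho it was PETN1 and PETO1 (0.954), with the same summed FPKM PETC1 and PETN1 (0.930) and within strains ATPD1 and ATPG1 (0.980), each inside a complex. The points share the strain and the scaling of the library, so the values are descriptions with no test. For comparison, the median r of all genes tested was 0.026 with the mean of the cytochrome b6f genes and 0.011 with that of the ATP synthase genes, and 0.372% and 0.534% of genes exceeded 0.8.

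Ranked among all genes tested, the nearest gene to PETC1 was PETN1 (r = 0.936), and PETM1 was at rank 3 and ATPG1 at rank 5. The nearest gene to PETM1 was ATPG1, and the nearest gene to ATPG1 was PETM1 (r = 0.951). For PETO1, PETN1 was at rank 3 (r = 0.917). ATPC1 and ATPD1 were less close to the rest: the best-placed of the 7 for ATPC1 was PETN1 at rank 13 (r = 0.856), and for ATPD1 it was ATPG1 at rank 17 (r = 0.911), with ATPC1 at rank 247 (r = 0.759). The gamma and delta mRNAs of the same enzyme thus followed each other less over all libraries than PETM1 followed ATPG1.

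Within strains the values were higher. As deviations from the strain mean, r was 0.860 (PETO1 and ATPG1) to 0.980 (ATPD1 and ATPG1), with medians of 0.948 within cytochrome b6f, 0.975 within ATP synthase and 0.938 between them. ATPC1 and ATPD1, at 0.759 over all libraries, were at 0.975 within strains and at 0.668 over the 7 strain means. The mRNAs thus rose and fell together between replicates of a strain, and their proportions varied more between strains than within them.

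**Figure D4:**
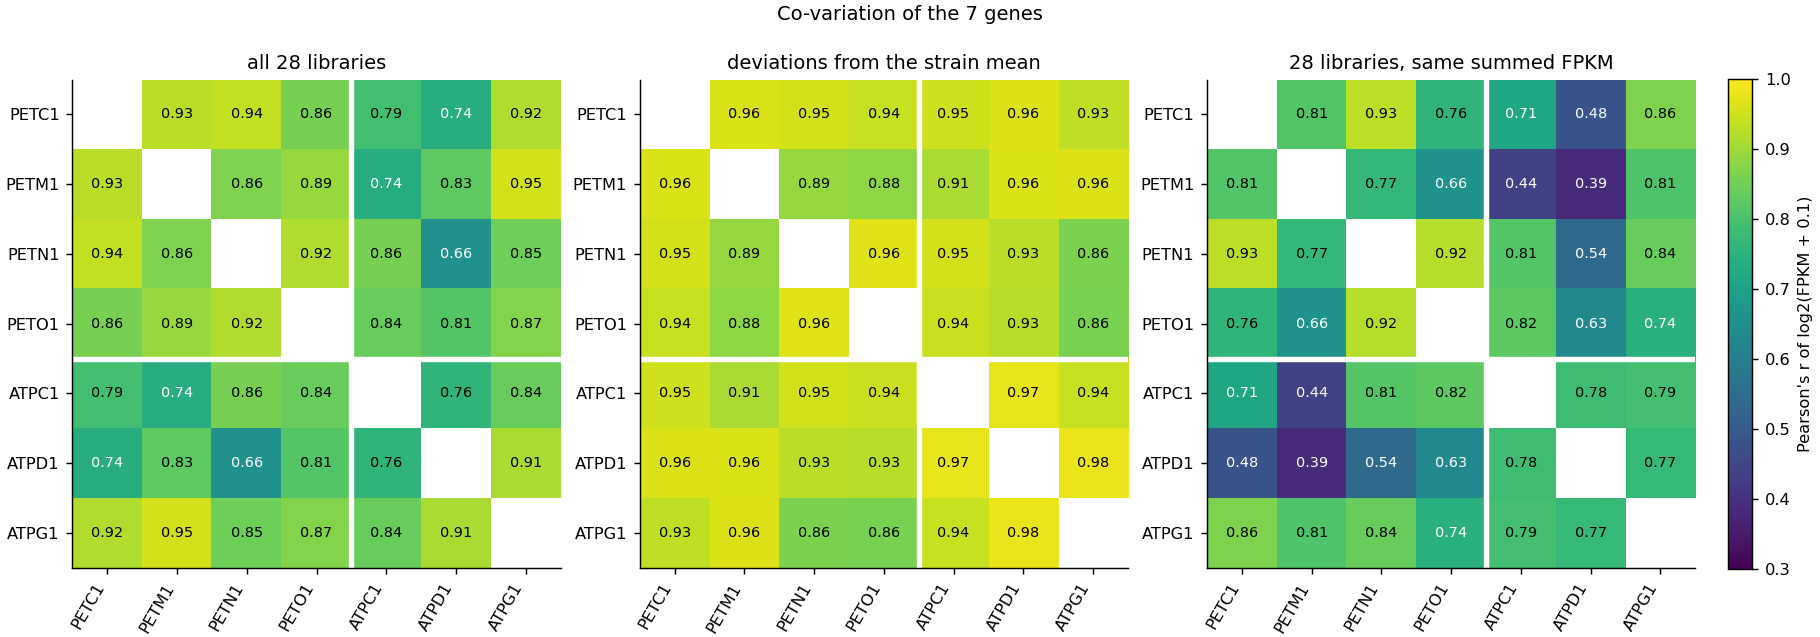
Pearson's r of log2(FPKM + 0.1) for each pair of the 7 genes over the 28 libraries (left), over deviations from the strain mean (middle) and over the 28 libraries with the same summed FPKM (right). White lines separate cytochrome b6f from ATP synthase. Within strains all pairs are at 0.86 or above, and with the same summed FPKM the lowest pair is PETM1 and ATPD1 at 0.39.

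The summed FPKM of a library moved with the 7 genes. Their mean log2 level had r = 0.722 with the log2 summed FPKM over 28 libraries (Spearman's rho = 0.700), 0.667 without CC-1690 replicates 2 and 4, the 2 libraries farthest from the median sum, and 0.954 within strains. Inside each single strain it was 0.934 (CC-4533) to 0.999 (CC-125) over 4 libraries. Within strains the r with the summed FPKM was 0.883 (PETO1) to 0.981 (PETM1), higher than for 98.4% to 99.8% of all genes tested, whose median was -0.005. The 100 most abundant genes took 44.7% to 63.1% of the summed FPKM. In CC-124 the sum was 746195 and 687533 in replicates 1 and 4 and 480355 and 489219 in replicates 2 and 3, and each of the 7 genes was higher in the former pair than in the latter. Whether these pairs are the 2 batches of that strain is not given. The part of the sum in the co-variation was not tested further than by scaling: with the same summed FPKM the medians were 0.789 within cytochrome b6f, 0.783 within ATP synthase and 0.729 between them, and for deviations from the strain mean on that scale, an alternative chosen after seeing the data, 0.628, 0.713 and 0.549.

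**Figure D5:**
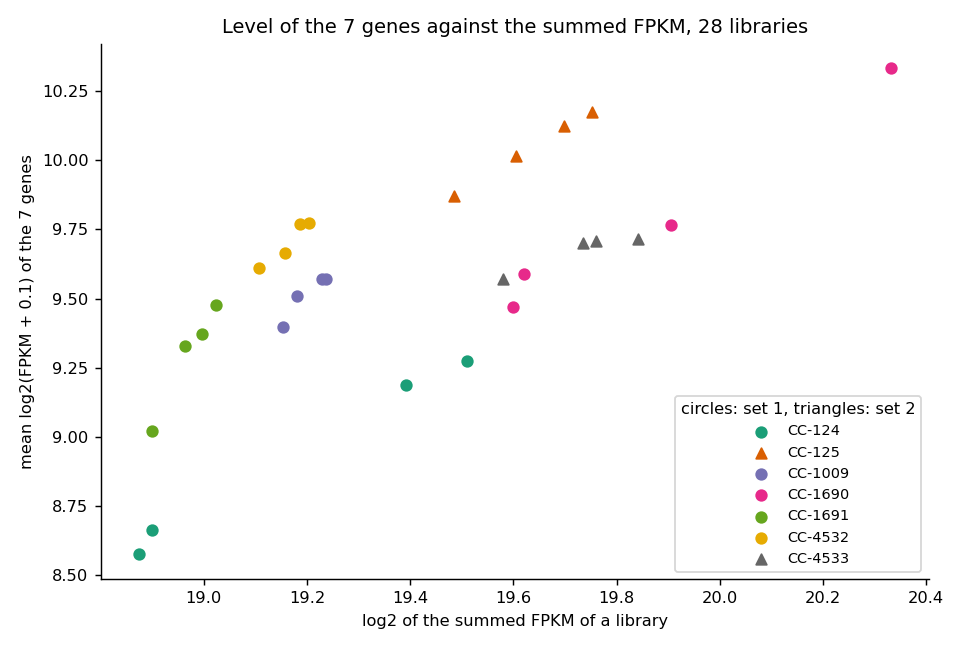
Mean log2(FPKM + 0.1) of the 7 genes (vertical axis) against the log2 of the summed FPKM (horizontal axis) in the 28 libraries, colored by strain, with circles for library set 1 and triangles for set 2. Inside every strain the libraries rise along the sum, and CC-124 lies below the other strains at a like sum.

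Outside the 7, the genes with a symbol and a mean above 10 FPKM whose profile was most like the mean of the cytochrome b6f genes were RBCS1 (r = 0.936), MSRA1 (0.930), ADK3 (0.900), LEU3 (0.896) and HMOX1 (0.887), over 28 libraries. RBCS1 encodes the small subunit of Rubisco, MSRA1 a methionine sulfoxide reductase, ADK3 an adenylate kinase, LEU3 an isopropylmalate dehydrogenase of leucine synthesis and HMOX1 a heme oxygenase. With the same summed FPKM the r of these 5 was 0.888, 0.816, 0.924, 0.677 and 0.708. Most like the mean of the ATP synthase genes were FBA3 (r = 0.947), a chloroplast aldolase of the Calvin cycle, LEU3 (0.944), the acyl carrier protein ACP2 (0.942), the chloroplast chaperone factor CGE1 (0.927) and RBCS1 (0.909). Their r with the same summed FPKM was 0.908, 0.848, 0.697, 0.869 and 0.809, in this order.

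Per gene, MSRA1 (0.929) and the biotin carrier BCC1 of acetyl-CoA carboxylase (0.926) were most like PETC1, and RBCS1 (0.939) and MSRA1 (0.936) most like PETM1. For PETN1 they were RPI1, ribose-5-phosphate isomerase (0.941), and ADK3 (0.936), and for PETO1 they were CPLD30 (0.935) and PSBO1, a subunit of the oxygen-evolving complex (0.908). For ATPC1 they were GAPA1, the A subunit of chloroplast glyceraldehyde-3-phosphate dehydrogenase (0.922), and FBA3 (0.920). For ATPD1 they were ACP2 (0.961) and CGE1 (0.948), and for ATPG1 they were LEU3 (0.939) and ACP2 (0.935). The r of these pairs with the same summed FPKM ran from 0.560 (MSRA1 with PETM1) to 0.934 (ADK3 with PETN1). LEU3 with ATPG1 was then at 0.707, ACP2 with ATPG1 at 0.763 and ACP2 with ATPD1 at 0.776.

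Genes of the neighboring parts of photosynthesis were described by lists that had been chosen with earlier results of these data known. In CC-124, 4 of the 5 photosystem II genes of the list used were lower (median log2 difference -0.32), 3 of 10 photosystem I genes (-0.30) and 10 of 11 Calvin cycle genes (-0.77), with none higher. In CC-125, 4 of 5, 3 of 10 and 10 of 11 of them were higher, with medians of 0.36, 0.27 and 0.73. The photosystem I counts were near the shares of all genes tested, 27.9% lower in CC-124 and 30.4% higher in CC-125. In CC-1690 all 5 photosystem II genes (0.66) and all 10 photosystem I genes (0.82) were higher but only 3 of 11 Calvin cycle genes, with 3 lower. In CC-1691 all 5 and all 10 photosystem genes were lower. The list counts here and below hold for the deposited scale and are to be read against the shares of all genes given above for each strain. They were not recomputed under other scalings, and the same summed FPKM moved the median gene by as much as -0.53 in CC-1690 and 0.47 in CC-1691. Over 28 libraries the median r with the cytochrome b6f mean was 0.785 for photosystem II and 0.731 for photosystem I, and 0.613 for the Calvin cycle.

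Single genes of these lists in the strains with at least 4 of the 7 genes called were as follows, each given for the strain of its largest difference among them, so that other strains may differ as well. RCA1, Rubisco activase, was at 134 ± 21.4 FPKM in CC-124 and 348 FPKM on average in the other 24 libraries (log2 difference -1.24). FBP1, fructose-bisphosphatase, was at 400 ± 15.2 against 204 FPKM in CC-125 (1.15), FBA3 at 4514 ± 235 against 2109 FPKM (1.13), and PRK1, phosphoribulokinase, at 1118 ± 75.5 against 566 FPKM (1.06). In CC-1690 the photosystem I genes PSAE1 (1.04), PSAH1 (1.00) and PSAI1 (0.88) and the photosystem II genes PSBR1 (0.70), PSBP3 (0.67), PSBQ1 (0.66) and PSBP1 (0.47) were higher, and in CC-1691 PSAK1 was lower (-0.87).

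Of the soluble carriers on either side of cytochrome b6f, plastocyanin (PCY1), its electron acceptor, was at 12050 ± 4370 FPKM in CC-1690 and 6879 FPKM in the others (log2 difference 0.79, limma, adjusted p = 0.00018). CYC6, the cytochrome c6 that replaces plastocyanin when copper is scarce, was at 0.025 ± 0.0289 FPKM in CC-124 and 3.09 FPKM in the others (-3.60 on the log2 scale with 0.1 FPKM added, which understates the difference of low genes). The mean of the others hides a wide range, since CYC6 was also low in CC-4533 at 0.0925 ± 0.069 FPKM (-2.94) and in CC-1691 at 0.557 ± 0.342 FPKM (-0.94), and was at 6.51 ± 1.65 FPKM in CC-1009 and 8.51 ± 2.19 FPKM in CC-1690. FNR1, ferredoxin-NADP reductase, was at 424 ± 30.5 FPKM in CC-124 and 819 FPKM elsewhere (-0.90), and FDX1, ferredoxin, was at 3551 ± 378 FPKM in CC-1691 and 6526 FPKM elsewhere (-0.78).

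State transitions and cyclic electron flow both involve cytochrome b6f. Of 7 genes of state transitions and cyclic flow, 6 were lower in CC-124 (median -0.55) and 4 were higher in CC-125 (0.28). This list did not follow the 7 subunit genes in every strain. In CC-1009, where no subunit gene was called, 5 were higher and 1 lower (0.30). In CC-4533, where ATPD1 and ATPG1 were higher, 5 were lower (-0.28). In CC-4532, 4 were higher (0.38), in CC-1690 3 were higher and 3 lower, and in CC-1691 2 were higher and 2 lower. ANR1, a partner in cyclic electron flow, was at 255 ± 74.5 FPKM in CC-124 and 688 FPKM elsewhere (-1.46). STT7, the kinase of state transitions that is activated through cytochrome b6f, was at 22.1 ± 2.59 against 47 FPKM (-0.99). It was about as low in CC-4533, at 23.3 ± 5.66 FPKM (-0.93), and lower also in CC-1690 (-0.41), where the 7 genes were not low on the deposited scale. PGRL1 was in CC-124 at 80.4 ± 8.73 against 124 FPKM (-0.61). CAS1, a calcium sensor of the thylakoid, was at 301 ± 30.2 FPKM in CC-125 and 192 FPKM elsewhere (0.68).

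Nuclear factors act on the plastid-encoded side of the complexes. Of 11 assembly and expression factors of cytochrome b6f, 5 were lower in CC-124 (median -0.23) and 2 were higher and 3 lower in CC-125, and their median r with the cytochrome b6f mean was 0.256. More of these factors were called in CC-4533, with 6 lower (-0.31), and in CC-4532, with 7 higher and 1 lower (0.44). In CC-1690, 3 were higher and 5 lower, in CC-1009 4 and 2, and in CC-1691 3 and 2. MCA1, which stabilizes the petA mRNA for cytochrome f, was at 8.12 ± 1.86 FPKM in CC-124 and 18.3 FPKM elsewhere (-1.11). In CC-1690, MCD1 for petD (-0.85) and MCG1 for petG (-0.80) were lower and CCDA1, a thiol carrier for cytochrome c assembly, higher (0.82). All 4 factors measured for plastid ATP synthase mRNAs were lower in CC-1690 (median -1.26), where 35.3% of all genes were lower, and none passed there in the other direction. TDA1, for translation of atpA, was at 1.53 ± 0.362 against 4.73 FPKM (-1.57), MDE1, for the atpE mRNA, at 0.398 ± 0.104 against 1.18 FPKM (-1.33), MDB1, for the atpB mRNA, at 2.39 ± 0.4 against 5.63 FPKM (-1.19) and MTHI1, for the atpH and atpI mRNAs, at 9.52 ± 1.43 against 17.3 FPKM (-0.83). The same 4 were all higher in CC-1009 (0.49), CC-1691 (0.44) and CC-4532 (0.55). Their median r with the ATP synthase mean was -0.132.

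The mitochondrion holds counterparts of the 2 complexes. Of 19 genes of the mitochondrial ATP synthase, 1 was lower in CC-124 (median 0.02) where all 7 chloroplast genes were lower. In CC-125 13 were higher (0.46), in CC-1690 15 were higher (0.54), and in CC-4533 17 were higher and 1 lower (0.45). In CC-1691 18 were lower (-0.51), and in CC-4532 18 were lower and 1 higher (-0.69). In CC-1009, 12 were lower (-0.29). ATP15, the epsilon subunit, was at 333 ± 104 FPKM in CC-1690 and 141 FPKM elsewhere (1.24), ASA9 at 408 ± 117 against 196 FPKM (1.08) and ASA8 at 653 ± 172 against 327 FPKM (1.03), and ASA2 was at 225 ± 20.9 FPKM in CC-125 and 115 FPKM elsewhere (1.04). Of 9 genes of the mitochondrial bc1 complex and its carrier, the counterpart of cytochrome b6f, none was called in CC-124 and 8 were higher in CC-1690 (median 1.13), among them QCR8 (1.39), QCR10 (1.36), QCR9 (1.25) and cytochrome c, CYC1 (1.21). All 9 were lower in CC-4532 (-0.51) and 8 were lower in CC-1691 (-0.39). In CC-4533, 3 were higher, in CC-125 2 were higher and 1 lower, and in CC-1009 1 was higher and 2 lower. Their median r with the chloroplast means was 0.395 for the bc1 genes with cytochrome b6f and 0.424 for the mitochondrial with the chloroplast ATP synthase.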

How the data were processed

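Polyadenylated RNA of 28 cultures (7 strains, 4 biological replicates each) was sequenced as single-end reads. The authors aligned the reads with STAR to the CC-4532 genome, version 6.1, counted them by strand with featureCounts and deposited FPKM values from DESeq2, rounded to 2 decimals; tool versions were not given in the sources used here. The deposited table of FPKM per replicate was used, and the authors' table of means was not used. Read totals were not used here, so no counting intervals are given.

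Values were taken as log2(FPKM + 0.1). Genes with a strain mean above 1 FPKM in at least 1 strain were tested (14785 of 17611) with limma 3.58.1 in R 4.3.3, using an F test over strains, each strain against the mean of the other 6, and the 21 pairs, with Benjamini-Hochberg adjustment over all genes tested and calls at an adjusted p below 0.05. This adjustment was run for each strain or pair by itself. Ratios were compared by permutation tests (numpy 2.4.6). P-values of the F tests were adjusted over the 6 ratios and those of single strains over 42. Inside library sets they were adjusted over the tests of each set. Correlations are descriptions. The limma step was tested on simulated data with independent noise and no batches, for CC-124 against the other 6 strains. It recovered 60% of planted log2 changes of 0.5, 95% of those of 1 and 100% of those of 2. A missing call is thus weak evidence that a small difference is absent.

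The member genes, the lists and the tests were chosen with earlier results of these data known. The genes named are the 7 members, the 5 genes with a symbol and a mean above 10 FPKM most like each complex mean and the 2 most like each member, and up to 4 called genes per list, by size of difference, in strains where 4 or more members were called. The alternatives were other pseudocounts, filters, scalings and thresholds, a replicate block, comparison inside library sets, and leaving out each library. Inside-set ratios and within-strain correlation at equal summed FPKM were added after seeing the data. Sequences and coordinates were not used here.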

Additional observations from a re-analysis of the deposited data

Results flagged for a closer look

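The ratio of ATPD1 to ATPC1 in CC-125 replicate 2 was 1, above the 0.976, 0.973 and 0.977 of replicates 1, 3 and 4. Its gap to the nearest of these took 0.881 of the range of the 4 values, past Dixon's 95% critical value. It was 1 of 91 groups of 4 so examined, and chance alone gives about 1 in 20. The difference is small beside the range of this ratio over strains, 0.784 to 1.24.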

How the results depend on the processing

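Of the 26 calls of single genes in a strain, all 26 kept direction and call with a pseudocount of 1 or 0.01, a filter at 5 FPKM or median-ratio scaling, and 25 without a filter. These settings could change little. The lowest level of these genes was 217 FPKM, the filters leave their values unchanged, and the deposited values were already on a median-ratio scale. With the same summed FPKM, 14 of the 26 calls held, 3 were lost and 9 changed sign. With quantile normalization, 16 held, 4 were lost and 6 changed sign. Of the 11 ratio calls, all 11 held without a pseudocount or with arithmetic sums, and 10 with quantile normalization (PETM1 to PETC1 in CC-1690 was lost at 0.21), under which 17 ratio tests passed. The cause of the changes below was not tested, and the shares of all genes called under these alternatives are not given.

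With limma's treat test against 2-fold, 0 genes were lower in CC-124, 0 higher in CC-125, 0 higher in CC-1690, 0 lower in CC-1691, 0 higher in CC-4532 and 0 higher in CC-4533, and calls fell to 0 of the 147 pair comparisons. At an adjusted p below 0.01, 1 gene was higher in CC-1690, 2 lower in CC-1691 and 1 higher in CC-4533. Inside library sets, 4 were higher in CC-125, 1 lower in CC-1691, 5 higher in CC-4532, and 0 higher and 4 lower in CC-4533, where ATPD1 was at -0.11 and ATPG1 at -0.23.

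With the same summed FPKM, 3 were higher in CC-1009, 1 higher and 6 lower in CC-1690, 4 higher and 0 lower in CC-1691, 7 higher in CC-4532, and 0 higher and 5 lower in CC-4533. In CC-1690, PETC1 was then at -0.19, PETO1 at -0.26 and ATPG1 at -0.29. In CC-1691, PETM1 was at 0.12, PETN1 at 0.20, PETO1 at 0.069, ATPD1 at 0.049 and ATPG1 at 0.16, and in CC-4533 ATPG1 was at -0.064. With quantile normalization, 2 were higher and 1 lower in CC-1009, 1 higher and 3 lower in CC-1690, 4 higher and 0 lower in CC-1691, 5 higher in CC-4532 and 3 lower in CC-4533. PETC1 was at -0.085 in CC-125, PETO1 at -0.064 and ATPG1 at -0.17 in CC-1690, and PETM1 at 0.043, PETN1 at 0.22 and ATPG1 at 0.12 in CC-1691.

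The median r within cytochrome b6f, within ATP synthase and between them was 0.873, 0.771 and 0.765 with Spearman's rho, 0.948, 0.975 and 0.938 within strains, 0.863, 0.733 and 0.758 without CC-124 replicates 2 and 3, 0.789, 0.783 and 0.729 with the same summed FPKM, 0.681, 0.652 and 0.553 with quantile normalization, and 0.628, 0.713 and 0.549 within strains with the same summed FPKM. Over strain means it was 0.812 within ATP synthase and 0.795 between, and in set 1 alone 0.790 within ATP synthase.

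Leaving out each library gave 6 to 7 genes lower in CC-124, 6 to 7 higher in CC-125, 0 to 1 lower in CC-1009, 1 to 5 higher and 0 to 1 lower in CC-1690, 0 to 5 lower in CC-1691, 1 to 4 higher in CC-4532 and 1 to 2 higher in CC-4533. It gave 70 to 85 pair calls, 9 to 13 ratio calls, and a median r of 0.888 to 0.915, 0.793 to 0.867 and 0.803 to 0.851. Replicate numbers did not pair the libraries (median r of deviations 0.002 for the same number and -0.006 for other numbers). With the replicate block, 25 of the 26 gene calls held, 76 pair comparisons passed, and PETN1 in CC-1691 missed the threshold at -0.29 (limma, adjusted p = 0.0518).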

Other observations

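The share of the summed FPKM taken by each complex, which belongs to no comparison above, put the strains in different orders. The 4 cytochrome b6f genes took 0.281% to 0.312% in CC-124 and 0.59% to 0.623% in CC-4532, the lowest and the highest strain. The 3 ATP synthase genes were lowest in CC-1690, at 0.272% to 0.288%, below the 0.294% to 0.311% of CC-124.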
